A study of Mus musculus with 8 samples.

Results

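The Krüppel-like factor (Klf) genes examined here are Klf2, Klf3, Klf4, Klf5, Klf6, Klf7, Klf9 and Klf12, 8 of the 22359 protein-coding genes of the mouse annotation. They were chosen by name. For each gene, all ChIP-seq peaks were collected that overlapped the gene or lay within 200 kb of one of its transcription start sites (TSSs) on mm9. The peaks come from CCE embryonic stem cells (ESCs), a mouse line of 129/Sv background, that stably express Prdm4 joined to EGFP (Prdm4-EGFP). By the study's methods the fusion was driven by the chicken beta-actin promoter, so its level is not set by the Prdm4 gene itself. Anti-GFP chromatin immunoprecipitation was carried out in 2 experiments on each of 2 independent clones. Clone B1 gave replicates 1 and 2, whereas replicates 3 and 4 came from clone B6. Each clone also had control precipitations with mouse IgG, against which the authors called the peaks. Those controls have no peak lists analysed here.

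The labels give the cells as ESCs. Peak lists hold no expression values, so neither this label nor the expression of the Klf genes could be checked. The 4 lists held 1266 to 1806 peaks, each with a score from the peak caller. Sequencing depth is unknown, because the lists give no read counts. Peaks scoring at least 10 in all 4 samples, cut to the stretch that all 4 covered, are called shared regions. There were 627 of them, with a median mean score of 37.6.

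Klf proteins are zinc finger transcription factors that bind GC-rich and CACCC-type elements. Klf2, Klf4 and Klf5 belong to the circuit of factors that keeps mouse ESCs in the naive pluripotent state, in which they are known to replace each other in part. Klf3 and Klf12 act largely as repressors through the corepressor CtBP. Klf6, Klf7 and Klf9 are better known outside ESCs, Klf6 in growth control and tissue repair, Klf7 in neurons and Klf9 as a gene induced by steroid and thyroid hormones. Prdm4 binds DNA through its own zinc fingers, at a tripartite sequence described by the study.

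A shared region lay in the window of Klf5, Klf2 and Klf7, 3 of the 8 genes. Of all protein-coding genes, 15.5% had a shared region by the same rule. Only the region of Klf5 lay in its gene. With no minimum score, Klf3 also had a peak in all 4 samples, which made 4 of the 8 genes against 21.1% of all genes. Klf6 and Klf9 had a peak in a single sample each, as did 10.5% of all genes. Counting any peak in any sample, 6 of the 8 genes had one, against 41.9% of all genes. Klf4 and Klf12 had none in any list, as did 58.1% of all genes. The 8 genes were chosen with earlier results of these data known, so these counts were not tested and are a description.

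The tripartite sequence consists of GGG, CT and GAAAC, with 1 to 4 bases between GGG and CT and 1 base between CT and GAAAC. It was searched on both strands, with GAAAC complete and mismatches counted over GGG and CT. The regions of Klf5 and Klf7 are shown whole, and that of Klf2 by its central 300 bases. They carry the shared peaks and differ in how they match the sequence. The site of Klf3 and the region beyond the window of Klf12 are shown by their best match with 40 bases on each side. Capitals mark bases that fit the tripartite sequence, which in the Klf2 stretch lies on the opposite strand and so reads in reverse complement. All are mm9 sequence, 5′ to 3′.
Klf5, plus strand, chr14:99702341-99702624: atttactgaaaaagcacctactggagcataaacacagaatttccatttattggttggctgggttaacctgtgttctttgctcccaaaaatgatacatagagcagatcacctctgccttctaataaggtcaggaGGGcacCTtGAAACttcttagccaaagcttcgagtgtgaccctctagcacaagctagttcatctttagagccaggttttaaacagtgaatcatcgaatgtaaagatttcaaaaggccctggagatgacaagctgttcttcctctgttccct
Klf7, plus strand, chr1:64343954-64344167: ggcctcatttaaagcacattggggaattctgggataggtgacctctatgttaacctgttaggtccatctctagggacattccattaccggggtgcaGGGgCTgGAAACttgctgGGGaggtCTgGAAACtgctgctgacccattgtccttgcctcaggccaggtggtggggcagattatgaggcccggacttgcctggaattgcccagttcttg
Klf2, plus strand, chr8:74924474-74924773: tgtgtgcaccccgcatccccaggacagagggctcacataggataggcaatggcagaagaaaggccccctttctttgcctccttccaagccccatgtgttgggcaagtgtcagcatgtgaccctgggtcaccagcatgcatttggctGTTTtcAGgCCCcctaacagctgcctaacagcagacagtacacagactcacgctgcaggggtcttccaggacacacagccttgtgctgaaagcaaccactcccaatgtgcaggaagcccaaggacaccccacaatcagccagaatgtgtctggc
Klf3, minus strand, chr5:65140998-65141092: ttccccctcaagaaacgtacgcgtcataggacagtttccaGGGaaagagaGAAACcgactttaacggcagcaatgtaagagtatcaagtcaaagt
Klf12, minus strand, chr14:100750069-100750162: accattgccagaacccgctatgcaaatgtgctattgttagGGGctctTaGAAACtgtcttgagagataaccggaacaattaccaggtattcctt

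Klf5 (ENSMUSG00000005148.7) lies on the plus strand of chromosome 14, from 99697910 to 99712624. Its region spans 99702341 to 99702624, in intron 2 of a transcript with 4 exons. The centre lies 4.57 kb downstream of the TSS. Klf5 is the only one of the 8 genes with a shared region within 5 kb of a TSS, which 0.948% of all genes have. The peak scored 66.2 and 70.5 in replicates 1 and 2 of clone B1 and 40.8 and 42.2 in replicates 3 and 4 of clone B6. The mean was 54.9 ± 15.6 (SD, n = 4). Both samples of clone B1 scored above both samples of clone B6. In its own list the peak ranked 183 of 1470, 190 of 1806, 296 of 1446 and 253 of 1266, so it stood in the upper part of every list.

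The 4 peaks of Klf5 agreed closely in position. Their starts spread over 65 bp and their ends over 28 bp, at widths of 312 to 359 bp. The shared region stopped 12 bp before exon 3. The peak of replicate 2 ended there too, whereas those of replicates 1, 3 and 4 reached 9, 11 and 16 bp into the exon. An exact match of the tripartite sequence, GGGcacCTtGAAAC, with a spacer of 3 bases, lay 2 bp off the region's centre. It was the only exact match in the whole window of Klf5. The region aligned to no other place in mm9 over 100 bp or more at 70% identity or more. No other protein-coding TSS lay nearer than that of Klf5, and the next, of Pibf1, was 126.8 kb away.

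**Figure D1:**
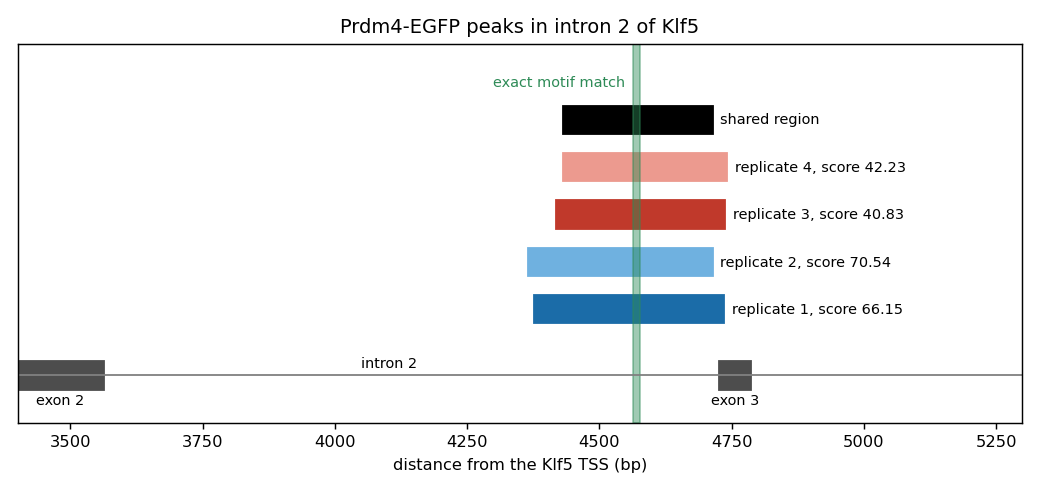
Extent of the peak of each sample in intron 2 of Klf5, by distance from the TSS in bp, with the shared region in black, exons in grey and the exact match of the tripartite sequence in green. All 4 peaks cover the match, and those of replicates 1, 3 and 4 reach into exon 3.

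Klf2 (ENSMUSG00000055148.7) is a short gene of 2.62 kb on the plus strand of chromosome 8, from 74842932 to 74845555. Its region lies at 74924465 to 74924782, with the centre 81.7 kb downstream of the TSS. Replicates 1 to 4 scored 49.6, 56.3, 63.9 and 41.5, with a mean of 52.8 ± 9.54 (SD, n = 4). The samples of the 2 clones overlapped, since clone B6 gave both the highest and the lowest score. The peak stood at percentile 79.8 to 87.1 of its list, close to the place of the Klf5 peak.

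The region of Klf2 lies in another gene. It falls in intron 1 of Eps15l1, which codes for an adaptor protein of endocytosis, with its centre 274.5 bp from a TSS of that gene. In the order of distance to a TSS, Klf2 was the fifth gene, after Eps15l1, Calr3, 1700030K09Rik and Cherp. Within 200 kb of the centre lay TSSs of 14 genes. Peak lists do not show which of these genes, if any, the region acts on.

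The region of Klf2 held no GAAAC on either strand. Of the 627 shared regions, 16 (2.55%) held none. In a looser search, added after the data were seen, mismatches were also allowed in GAAAC. The best match was then GGGcCTgaAAAC on the minus strand, at 74924620 to 74924631. It has a spacer of 1 base and a single mismatch, which falls in GAAAC, and lies 2 bp off the region's centre. A match with at most 1 mismatch anywhere lay in 87.1% of the shared regions and in 7.50% of control intervals, equal in width and placed 5 kb away. These shares include matches with GAAAC complete, which alone lay in 82.6% of the shared regions and 3.83% of control intervals. The 87.1% therefore does not describe matches with a mismatch in GAAAC, such as that of Klf2. The region of Klf2 had no second copy in mm9 by the same alignment limits.

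Klf7 (ENSMUSG00000025959.6) runs over 92.8 kb of chromosome 1 (64076021 to 64168856, minus strand), with 5 annotated TSSs. Its region at 64343954 to 64344167 is intergenic, with the centre 175.2 kb upstream of the first TSS. Scores were lower than at Klf5 and Klf2, at 16.6, 23.7, 31.6 and 24.1 for replicates 1 to 4, which average 24.0 ± 6.12 (SD, n = 4). Here both samples of clone B6 scored above both of clone B1, though replicates 2 and 4 were nearly level. The peak stood at percentile 52.3 to 74.3 of its list. Klf7 was the nearest gene, and Creb1, at 235.3 kb, came next.

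The region of Klf7 held 2 exact matches on the plus strand. The first, GGGgCTgGAAAC, has a spacer of 1 base and the second, GGGaggtCTgGAAAC, a spacer of 4 bases. They lay 5 bp and 14.5 bp off the region's centre. This sequence is a copy of a repeated sequence. It aligned to 692 other loci in mm9, and 24.1% of its 693 loci overlapped a shared region. Of the shared regions, 163 aligned to it, itself included. The median mean score of these was 63.9, and the region of Klf7 ranked 147 among them. Whether reads of other copies add to the Klf7 peak was not tested.

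Klf3 (ENSMUSG00000029178.7) lies on the plus strand of chromosome 5, from 65194628 to 65221368. A peak upstream of it was in all 4 lists, and the stretch covered by all spans 65140987 to 65141178. It is intergenic, 53.5 kb from the TSS, and Klf3 was the nearest gene. Replicates 1 to 4 gave 2.80, 11.5, 12.3 and 9.55, which average 9.05 ± 4.32 (SD, n = 4). Replicates 1 and 4 fell below 10, replicate 4 only just, so this site was no shared region. In replicate 1 the peak ranked 1456 of 1470. The site held 4 copies of GAAAC, and its best match, GGGaaagagaGAAAC, had 2 mismatches, both in CT. It had no second copy in mm9. The nearest shared region was 1557 kb from a TSS of Klf3.

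At Klf6 (ENSMUSG00000000078.6; chromosome 13, 5860735 to 5869639, plus strand) a peak was listed in replicate 3 alone, 111.1 kb upstream of the TSS at 5749513 to 5749725. Its score was 2.48 and its rank 1433 of 1446. It held no GAAAC. It aligned to 1429 other loci in mm9, and 2.52% of its 1430 loci overlapped a shared region. In the looser search described for Klf2, the best match in this peak had 3 mismatches, 1 of them in GAAAC. At Klf9 (ENSMUSG00000033863.1; chromosome 19, 23215716 to 23241401, plus strand) a peak was listed in replicate 4 alone, 35.9 kb downstream of the TSS at 23251490 to 23251717. Its score was 3.45 and its rank 1216 of 1266. It held 1 GAAAC, but no match of the tripartite sequence with GAAAC complete and up to 3 mismatches. In the looser search, the best match in the Klf9 peak had 2 mismatches, 1 of them in GAAAC. Both peaks were intergenic, and each had the Klf gene as its nearest gene. A peak found in 1 of 4 samples near the foot of its list gives no agreement between samples. The nearest shared regions were far off, at 3447 kb from Klf6 and 6704 kb from Klf9.

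Klf4 (ENSMUSG00000003032.7; chromosome 4, 55540013 to 55545347, minus strand) had no peak of any score within 200 kb in any of the 4 lists. The nearest peak was the same site in all 4 samples, its nearest base 325.2 kb from a TSS, with scores of 25.3, 23.8, 20.6 and 24.4 for replicates 1 to 4. Its mean of 23.5 ± 2.06 (SD, n = 4) varied little. Rad23b and Zfp462 lay closer to it than Klf4 did. The shared region at this site aligned to 244 other loci in mm9. Of the shared regions, 65 aligned to it, itself included, and it ranked 63 among them by mean score. Whether reads of other copies add to this peak was not tested. As the lists hold called peaks only, weaker signal near Klf4 would not be seen.

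Klf12 (ENSMUSG00000072294.3; chromosome 14, 100269869 to 100549015, minus strand) is by far the longest of the 8 genes at 279.1 kb, yet no peak lay in it or in its window. A shared region at 100749859 to 100750282 missed the window by 844 bp. The nearest base of its peaks was 200.761 to 200.844 kb upstream of the TSS, and Klf12 was its nearest gene. It scored 25.0, 35.8, 36.3 and 17.1 over replicates 1 to 4, averaging 28.6 ± 9.23 (SD, n = 4). The clones overlapped, with the lowest score in clone B6. The last member just inside the limit was Klf7, at 175.1 kb by nearest base. The best match in this region, GGGctctTaGAAAC, had 1 mismatch, in CT. The region aligned to 1509 other loci, so like that of Klf7 it is a copy of a repeat.

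**Figure D2:**
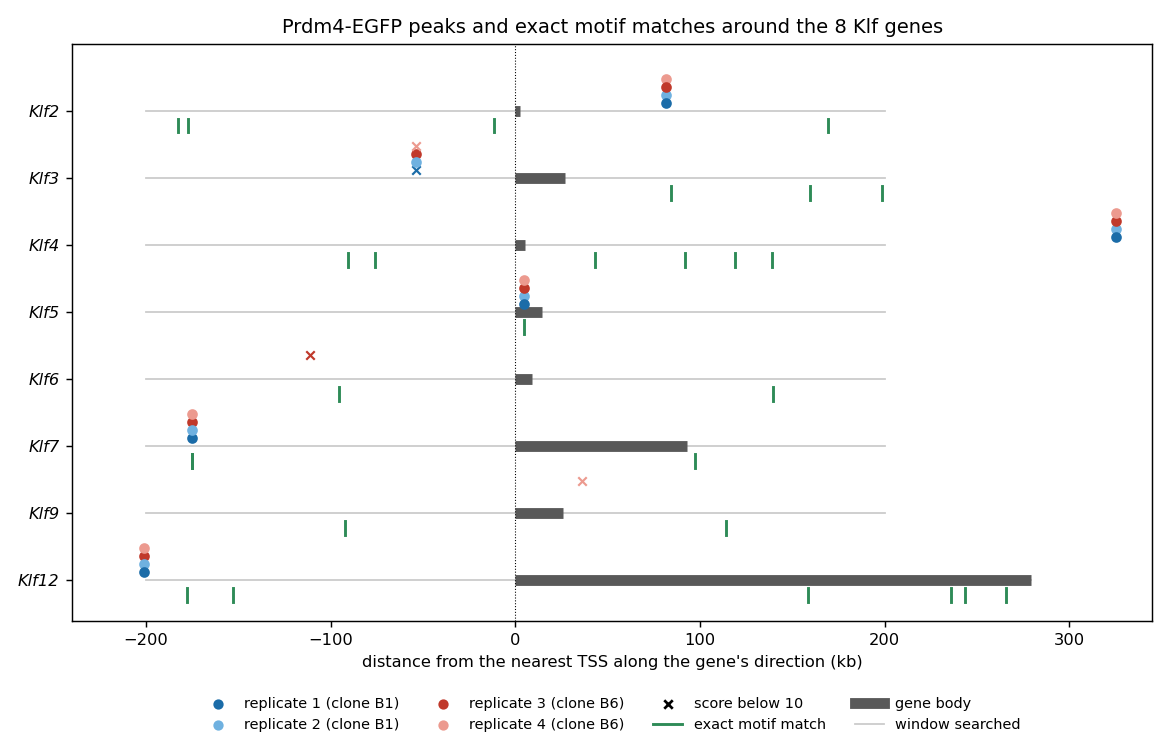
Peaks and exact matches of the tripartite sequence in the window of each gene, by distance from the TSS in kb, with the nearest peaks outside the windows of Klf4 and Klf12 also drawn. The shared regions of Klf5, Klf2 and Klf7 lie 4.57, 81.7 and 175.2 kb from a TSS, and 24 of the 27 exact matches lie in no peak.

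**Figure D3:**
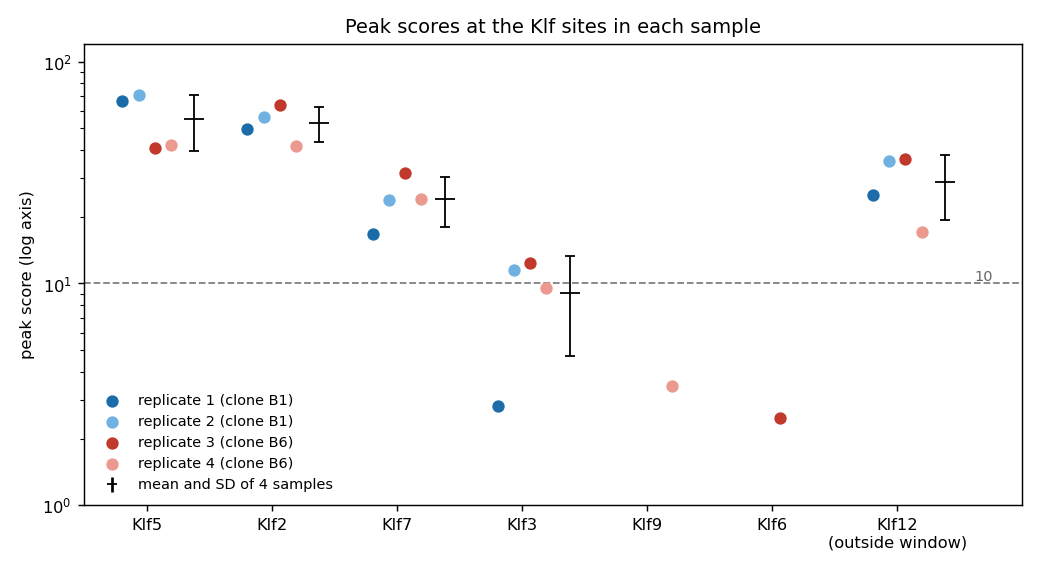
Peak score in each of the 4 samples at the sites of the Klf genes, on a log axis, with the minimum of 10 as a dashed line. The Klf5 and Klf2 peaks scored above 40 in every sample, and the Klf3 peak fell below 10 in replicates 1 and 4.

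In the order of mean score the sites ran Klf5, Klf2, Klf7 and Klf3. Since the order comes from the scores themselves, it is given as a description. Klf5 and Klf2 were almost level in mean score, with Klf5 higher in 3 of 4 samples, and their ranges overlapped. Both scored above Klf7 in 4 of 4 samples, and Klf7 scored above Klf3 in 4 of 4. The score has no named scale, so a ratio of scores is not a fold of binding.

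The clone comparison asks whether the peaks differ between the clones carrying the fusion. Of the 3 shared regions at members, the samples of the clones did not overlap at 2, Klf5 and Klf7, against 44.8% of all 627 regions. The direction was opposite, with clone B1 above at Klf5 (means 68.3 and 41.5) and clone B6 above at Klf7 (means 27.8 and 20.2). In all, clone B1 was above at 193 regions and clone B6 at 88. The ratio of geometric means, B1 over B6, was 1.65 at Klf5, 0.719 at Klf7, 1.03 at Klf2 and 0.524 at Klf3. By two-sided exact permutation of 2 samples against 2, p was 0.333 at Klf5 and Klf7 (adjusted over 4 sites 0.667), 0.667 at Klf3 and 1 at Klf2. With 2 samples a clone, 0.333 is the smallest p this design allows, so the test cannot tell a difference from none. At Klf5 the clone means differed by 26.8, whereas the samples within a clone differed by 4.39 in B1 and 1.40 in B6. At Klf2 the samples of B6 differed by 22.4, far more than the clone means.

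Scores are not scaled between samples, so the clones were also compared by percentile within each list, a measure chosen after seeing the data. A percentile also depends on how many weak peaks its list holds. The lists held 1470 and 1806 peaks in clone B1, and 1446 and 1266 in clone B6. Then 1 of the 3 member regions, that of Klf5, showed no overlap, against 43.2% of all regions. By percentile clone B1 was above at 212 of all regions and clone B6 at 59. The percentiles of the Klf5 peak were 87.6 and 89.5 in B1, and 79.6 and 80.1 in B6. At Klf7 the clones overlapped by percentile, with replicate 2 of B1 at 67.8 and replicate 4 of B6 at 66.9.

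**Figure D4:**
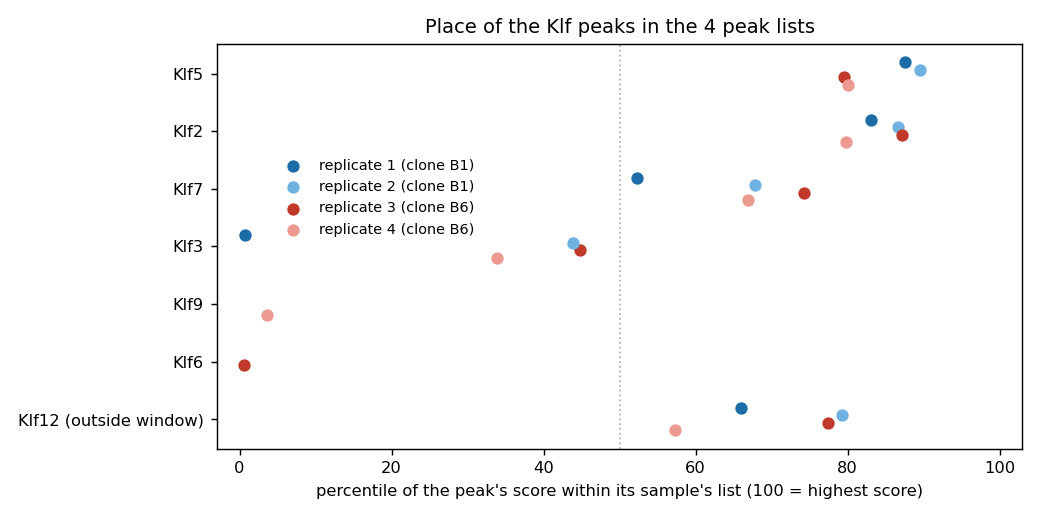
Percentile of each Klf peak among all peaks of its own sample list, a point for each sample (100 is the highest score). Klf5 and Klf2 peaks stand between 79.6 and 89.5 in every list, and the single peaks of Klf6 and Klf9 at 0.554 and 3.64.

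All 8 windows held an exact match of the tripartite sequence, from 1 at Klf5 to 6 at Klf4 and Klf12. So did the windows of 98.2% of all genes with a shared region and 91.3% of those without. Per Mb of window, Klf5, Klf6 and Klf9 lay below the 6.58 of the genome, and the other 5 genes above it. The windows held 27 exact matches, and 3 of them (11.1%) lay in a shared region, 1 at Klf5 and 2 at Klf7. Of the 16827 exact matches in the genome, 2.56% lay in a shared region. The other 24 matches in the windows lay in no peak of any list. Klf4 and Klf12, with no peak, held 6 exact matches each, the most of the 8 genes. Klf5 held 1, the fewest, and it lay in the shared region. Klf2 held 4, none in a peak, and the nearest of them to its TSS lay 11.7 kb upstream. In Klf12, 4 of the 6 lay in introns of the gene, 1 in intron 3, 2 in intron 5 and 1 in intron 6, all with a spacer of 1 base. An exact match was thus neither present at every shared region of a Klf gene nor marked by a peak wherever it occurred.

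The exact matches in the windows of Klf4 and Klf12, none of them in a peak, are shown for comparison with those of Klf5 and Klf7 above. Capitals mark GGG, CT and GAAAC, and each is read 5′ to 3′ on its strand of mm9.
Klf4, minus strand, chr4:55405799-55405811: GGGtaCTaGAAAC
Klf4, plus strand, chr4:55425603-55425616: GGGtgaCTaGAAAC
Klf4, plus strand, chr4:55452732-55452744: GGGaaCTgGAAAC
Klf4, plus strand, chr4:55501195-55501209: GGGacacCTaGAAAC
Klf4, minus strand, chr4:55621490-55621504: GGGtataCTgGAAAC
Klf4, plus strand, chr4:55635952-55635963: GGGtCTaGAAAC
Klf12, minus strand, chr14:100283406-100283417: GGGcCTgGAAAC
Klf12, minus strand, chr14:100305558-100305569: GGGtCTgGAAAC
Klf12, minus strand, chr14:100312870-100312881: GGGgCTtGAAAC
Klf12, plus strand, chr14:100390744-100390755: GGGgCTtGAAAC
Klf12, plus strand, chr14:100701670-100701682: GGGaaCTaGAAAC
Klf12, plus strand, chr14:100726806-100726818: GGGacCTtGAAAC

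The remaining windows held 4 exact matches at Klf2, 3 each at Klf3 and Klf7, and 2 each at Klf6 and Klf9. Of the 3 at Klf7, that outside the shared region lay in no peak.

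**Figure D5:**
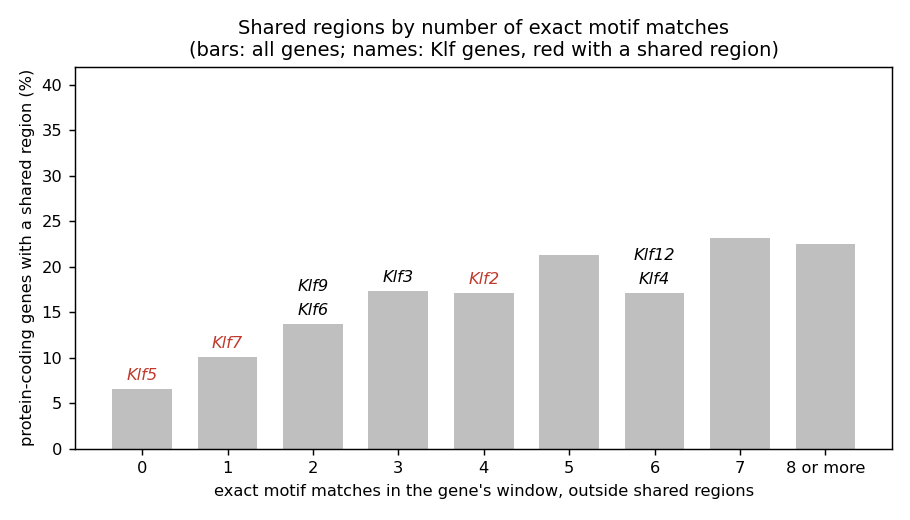
Share of all protein-coding genes with a shared region in their window, in percent, by the number of exact matches of the tripartite sequence in that window outside shared regions, with the 8 Klf genes named at their counts. The share is 6.54% for genes with 0 such matches, where Klf5 stands, and 17.1% for genes with 6, where Klf4 and Klf12 stand.

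Matches inside shared regions come with the region, so only those outside were counted against it. Klf5 had 0, Klf7 had 1 and Klf2 had 4. Across all protein-coding genes, the share with a shared region was 6.54% for 0 such matches, 17.4% for 3 and 22.5% for 8 or more. Neighbouring genes share windows in part, so these genes are not independent. Over all 627 shared regions, 50.7% held an exact match and 82.6% a match with up to 1 mismatch, against 0.319% and 3.83% of the control intervals. The regions of Klf5 and Klf7 belong to the first class, and that of Klf2 to the few without GAAAC.

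Genes with and without a shared region were set side by side. The 3 members with a region had a median length of 14.7 kb, 2 other genes with a TSS in the window, and 1 exact match outside shared regions (0 to 4). The 5 members without had 25.7 kb, 1 other gene, and 3 such matches (2 to 6). Among all genes the medians were 15.4 kb, 9 other genes and 3 matches for the 3475 with a region, and 15.4 kb, 6 other genes and 3 matches for the 18884 without. The members thus had fewer neighbours than the median gene of either class, apart from Klf2 with 13 other genes. The GC content of the windows ran from 39.6% at Klf6 to 48.2% at Klf2.

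For context, 18 other Klf and Sp genes were counted by the same rule. Of these, 4 (22.2%) had a shared region, namely Klf16, Sp2, Sp3 and Sp6. Sp2 and Sp6 share the same region. Of 20 other pluripotency factors, 4 (20%) had one, namely Nanog and Dppa3, which share regions, Zfp42 and Utf1. Set beside the 15.5% of all genes, these shares were not tested.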

How the data were processed

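Prdm4-EGFP binding was measured by ChIP-seq with anti-GFP antibody in 4 samples, replicates 1 and 2 from clone B1 and 3 and 4 from clone B6. By the study's methods, the authors aligned reads with Stampy and called peaks against IgG control ChIP. The submitters' processing notes name MACS2 and mm9. The deposited peak lists give each peak's position and a score whose scale they do not name. Scores are not scaled between samples, so ranks and percentiles within each list are also given. Both experiments on a clone share that clone, and p-values measure only the spread between these samples.

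Following the study's methods, peaks scoring at least 10 that overlapped by at least 1 bp in all 4 lists were cut to their common stretch (627 shared regions). Genes and 46015 TSSs of protein-coding genes were taken from the GENCODE annotation of NCBIM37 (mm9). A gene had a region if it overlapped the gene or lay within 200 kb of a TSS. Sequences came from the same assembly. Control intervals of equal width lie 5 kb from each region. Copies were alignments by BLAST+ 2.17.0 of at least 100 bp and 70% identity at an E value of at most 1e-10. Exact tests and Benjamini-Hochberg adjustment used Python 3.11.15, numpy 2.4.6, scipy 1.17.1 and statsmodels 0.14.6, and pysam 0.24.0 read the genome. The scripts were tested on simulated data. The genes named are the 8 members, the genes nearest to their peaks, and the genes of 2 fixed lists (other Klf and Sp genes, other pluripotency factors) with a shared region. Members and lists were chosen with earlier results of these data known. Alternatives were other score minimums, windows, overlaps, motif limits, ranks or percentiles for scores, and leaving out each replicate. Peak lists of the IgG controls are not analysed here.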

Additional observations from a re-analysis of the deposited data

How the results depend on the processing

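The count of 3 Klf genes with a shared region fell to 0 at a minimum score of 50, to 1 with a window of 5 kb and to 1 with 50 kb, and rose to 5 with 500 kb. Of all genes, 5.17%, 1.65%, 4.98% and 30.5% had a region under these settings. The count of Klf genes with a shared region was 2 at a minimum score of 20 and 2 with 100 kb. Klf7 was lost under both of these settings, and Klf2 and Klf5 remained. With no minimum score the count was 4, as Klf3 was added. The count of 6 genes with any peak fell to 3 at a minimum of 20, to 2 at 50, to 1 with 5 kb and to 2 with 50 kb, and rose to 8 with 500 kb. The shares of all genes were 19.0%, 9.16%, 5.79%, 15.8% and 68.0%. This count was already 4 at a minimum of 5 or of 10, without Klf6 and Klf9. It was also 4 with 100 kb, without Klf6 and Klf7. The shares of all genes there were 39.0%, 29.7% and 26.3%. Leaving out each replicate in turn kept the first count at 3 and gave 5 to 6 for the second, with 16.0% to 17.6% and 36.9% to 40.5% of all genes. Without replicate 3 the Klf6 peak is lost, and without replicate 4 that of Klf9. The clone difference at Klf2, 0.01 on the log10 scale, turned to -23.5 by rank. By percentile, chosen after seeing the data, clone B1 stayed above by 1.38 points. Lists differ in length, which affects both ranks and percentiles, so the direction at Klf2 was not settled. With up to 2 mismatches outside GAAAC, 2 of the 3 member regions held the motif (92.3% of all shared regions, 11.5% of control intervals), and 3 did with 1 mismatch allowed anywhere, chosen after seeing the data (87.1% and 7.50%). No paired analysis was possible because the IgG samples that share replicate numbers with the anti-GFP samples carry no list of peaks here. Depth is unknown, so peaks too weak to be called cannot be seen.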

Other observations

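Some of the sites near Klf genes are copies of the same sequence. The single peak near Klf6 and the shared region beyond the window of Klf12 aligned at 89.6% identity over 201 bp, and the Klf7 region and the region nearest to Klf4 aligned at 77.3% identity over 176 bp. The exact match in the region nearest to Klf4, which lies outside its window, is GGGaggtCTgGAAAC. It has the same letters as the second match of Klf7. The sites of Klf5, Klf2, Klf3 and Klf9 each had no other copy in mm9 by the same limits.

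Of the 16 shared regions without GAAAC, that of Klf2 among them, 14 held a match with 1 mismatch when mismatches in GAAAC were allowed too, and the other 2 a match with 2 mismatches.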
